A study of Mus musculus with 2 samples.

Results

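Endothelial nuclei of the mouse gastrocnemius-plantaris (GP) muscle were described from droplet snRNA-Seq, in which the RNA of single nuclei is barcoded and counted as UMIs (unique molecular identifiers, each standing for 1 captured transcript). A nucleus was taken as endothelial when it held at least 4 raw UMIs from at least 2 of 11 genes, Pecam1, Flt1, Cdh5, Kdr, Ptprb, Mecom, Cyyr1, Egfl7, Emcn, Adgrl4 and Tek, and fewer UMIs than that over 9 genes of other cells, Myh11, Acta2, Rgs5, Pdgfrb, Notch3, Pdgfra, Dcn, Col1a1 and Ptprc. The rule found 156 endothelial nuclei among 7741 nuclei with at least 500 UMIs and at most 10% mitochondrial UMIs. Of these, 113 came from the Ctrl library and 43 from the cKO library.

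Ctrl mice were Net39 fl/fl without Cre, and cKO mice were HSA-CreERT2; Net39 fl/fl, with B6C3F1 given in the labels as the strain background of both. The floxed founders were crossed to C57BL/6N mice and then to the Cre line per the methods, so the background is mixed. Both received tamoxifen and were studied at 5 months of age, 3 months after it. The human skeletal actin (HSA) promoter drives the inducible Cre in muscle fibres, so that no deletion is designed to occur in endothelial cells, and both groups carry the floxed allele. Each library held the pooled nuclei of 3 muscles per the protocol in the labels, while the sample titles name 1 mouse, and each group had 1 library, so no comparison between Ctrl and cKO has a replicate check, no p value is given, and all intervals are exact 95% intervals that cover counting error only. NET39 is a protein of the inner nuclear membrane encoded by Plpp7, of which the endothelial nuclei held 6 UMIs in Ctrl and 0 in cKO. A count of 0 there allowed up to 52.2 CPM (UMIs per 1000000 UMIs of the nuclei summed), more than the 19.3 CPM measured in Ctrl, and the deletion removes the first exon while the 3′ tags counted lie elsewhere, so Plpp7 does not check the labels in these nuclei.

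Endothelial cells line all blood vessels, and in skeletal muscle most of them form capillaries that run along the fibres and pass oxygen, glucose and fatty acids to them. Their identity is held by transcription factors of the ETS and SOX families, and their growth and survival by VEGF and angiopoietin signals through the receptors FLT1, KDR and TEK. Arteries, capillaries, veins and lymphatic vessels differ in their endothelial genes, with Notch signalling a known part of the arterial program.

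The count tables held 3863 barcodes with 10410316 UMIs in Ctrl and 3994 barcodes with 8446070 UMIs in cKO, of which 3833 and 3908 passed the filters. 5 barcode sequences occurred in both libraries, and 0 of them were endothelial nuclei. The endothelial nuclei held 311149 UMIs in Ctrl, with a median of 1458 per nucleus (range 502 to 24922), and 70651 UMIs in cKO, with a median of 1028 (501 to 6386). The cKO values below therefore rest on far fewer UMIs than the Ctrl values. All other nuclei had medians of 2120 and 1670 UMIs. The 12 deepest endothelial nuclei of Ctrl held 38.9% of its endothelial UMIs and the 5 deepest of cKO held 34.1%.

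The 20 genes outside the rule that stood out most against all other nuclei by the lower bound of their ratio were led by Sox17, Timp4, Adgrf5, Ccm2l and Shank3, and included Rapgef5, Tie1 and Erg. For these leading genes the 300 bases around the transcript start (250 before, 50 after, RefSeq, GRCm38.p6) were read where the promoter table had an entry. Shown are 4 whose start fell in a transcript of GENCODE M21, 3 chosen because they hold the motif described next and Tie1 as one that does not. The motif searched was CAGGAAG, a core bound by ETS factors such as ERG, which reads CTTCCTG on the opposite strand, and both strands were searched. The Timp4 promoter (chr6:115252156-115252455, minus strand) held a match on the opposite strand 111 bases before the start, the Rapgef5 promoter (chr12:117516276-117516575, plus strand, 1 of 2 starts in the table) a match on the gene's strand 144 bases before it, and the Erg promoter (chr16:95459299-95459598, minus strand, 1 of 3 starts) a match on the opposite strand 40 bases before it. The Tie1 promoter (chr4:118489800-118490099, minus strand) held none. Capitals mark the match.
Timp4: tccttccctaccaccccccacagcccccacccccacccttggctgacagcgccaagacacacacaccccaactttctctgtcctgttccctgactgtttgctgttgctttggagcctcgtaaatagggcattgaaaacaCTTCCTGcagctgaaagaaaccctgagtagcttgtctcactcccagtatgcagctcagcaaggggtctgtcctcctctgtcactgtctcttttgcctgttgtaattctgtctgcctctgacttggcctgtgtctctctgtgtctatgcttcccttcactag
Rapgef5: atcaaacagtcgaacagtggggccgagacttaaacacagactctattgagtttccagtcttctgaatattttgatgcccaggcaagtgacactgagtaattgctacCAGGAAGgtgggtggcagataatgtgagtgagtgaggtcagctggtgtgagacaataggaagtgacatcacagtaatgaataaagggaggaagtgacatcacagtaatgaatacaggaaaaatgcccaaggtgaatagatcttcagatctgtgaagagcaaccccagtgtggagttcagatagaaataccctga
Erg: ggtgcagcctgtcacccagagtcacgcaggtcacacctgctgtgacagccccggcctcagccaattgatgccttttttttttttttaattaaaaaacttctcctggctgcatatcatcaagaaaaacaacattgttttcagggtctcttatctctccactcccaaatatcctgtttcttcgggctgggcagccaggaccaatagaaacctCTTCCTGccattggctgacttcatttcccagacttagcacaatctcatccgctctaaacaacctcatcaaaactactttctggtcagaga
Tie1: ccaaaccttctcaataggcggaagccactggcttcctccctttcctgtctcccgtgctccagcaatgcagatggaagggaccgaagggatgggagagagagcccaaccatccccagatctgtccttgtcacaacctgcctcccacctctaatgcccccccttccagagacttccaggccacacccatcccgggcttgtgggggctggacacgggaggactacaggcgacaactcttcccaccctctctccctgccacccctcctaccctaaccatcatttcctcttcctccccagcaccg

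In all, 12 of the 20 leading genes were in the table, with 22 promoters between them, of which 5 (22.7%) held the motif, each in a different gene. Of 32851 mouse promoters of the same length 13.3% held it. A match is a description of the sequence and not a binding site, and no match says only that these letters are not in this window.

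The endothelial label was checked first against endothelial genes that the rule did not use. A fixed list of 36 such genes reached 8822 CPM in the endothelial nuclei of Ctrl and 11252 CPM in those of cKO, against 1153 and 940 CPM in all other nuclei, and every one of the 36 had at least 1 UMI in the endothelial nuclei. These levels are a description, since the rule had selected the nuclei on related genes. The leading single genes were chosen for their ratio over all other nuclei, so their folds are a description, and most nuclei lacked a UMI of any one of the rarer ones. Sox17, a transcription factor of the vascular lining, was 501-fold higher in endothelial than in all other nuclei over both libraries (95% interval 123 to 4411), with a UMI in 11.5% and 11.6% of endothelial nuclei. Timp4, a protease inhibitor, was 277-fold higher (106 to 916), the adhesion receptor Adgrf5 120-fold (86.5 to 168), Shank3 117-fold (83.3 to 168), the angiopoietin co-receptor Tie1 110-fold (55.8 to 230) and Erg, an ETS factor, 95.5-fold (53.7 to 175). Prkch, a protein kinase C, was 86.1-fold higher (66.2 to 112), and the water channel Aqp1 87.2-fold (51.3 to 152). The remaining leading genes lay between 66.4-fold (St6galnac3, 51.3 to 86.2) and 229-fold (Ccm2l, 85.7 to 769). Of Rsad2, an interferon-induced gene, 18 of 21 Ctrl UMIs lay in 1 nucleus.

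Of 3210 genes with at least 20 UMIs over the endothelial nuclei of both libraries, 334 (10.4%) were at least 4-fold higher in endothelial than in all other nuclei of Ctrl and 400 (12.5%) in cKO. The rule used this contrast, so the counts carry no further reading. The rule genes themselves were between 18.8-fold (Tek) and 215-fold (Adgrl4) higher in endothelial nuclei, apart from Egfl7, which had 15 UMIs there and a ratio of 716 (110 to 30152). Mecom, a zinc finger transcription factor, had UMIs in 76.1% of endothelial nuclei of Ctrl and 81.4% of those of cKO, but also in 8.41% and 5.41% of all other nuclei, the highest background of the rule genes named here. Flt1 was seen in 69.9% and 53.5% of endothelial nuclei against 1.29% and 0.724% of the others. Cyyr1 was seen in 63.7% and 41.9% against 1.32% and 0.517%.

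The endothelial nuclei were not uniform. The median nucleus held 9 UMIs of the 11 rule genes in Ctrl (range 4 to 113) and 8 in cKO (4 to 21), from 4 genes in both, and 50 Ctrl and 12 cKO nuclei held 10 or more. UMIs of 26 genes of the muscle fibre made up a median of 1.20% of an endothelial nucleus in Ctrl and 1.17% in cKO, against 6.83% and 6.45% in all other nuclei. The spread was wide, with 52 Ctrl nuclei (46.0%) and 18 cKO nuclei (41.9%) below 1% and 14 (12.4%) and 4 (9.30%) at or above the median of the remaining nuclei, which are mostly of fibres. Nuclei at or below their library's median fibre share, called low-fibre nuclei from here on (57 in Ctrl with 72879 UMIs, 22 in cKO with 17057), held a median of 12.4 rule-gene UMIs per 1000 UMIs in Ctrl and 11.6 in cKO. The nuclei above it held 2.07 and 3.23 per 1000 and were deeper, with medians of 2922 and 2551 UMIs against 966 and 664. Nuclei low in fibre RNA were thus small in UMI number and dense in endothelial RNA, whereas the deeper ones carried endothelial UMIs on a fibre background. Whether the latter hold RNA of more than 1 nucleus was not tested, since the doublet score marked 0 nuclei by its own threshold. Ratios in the low-fibre nuclei are given beside many of the genes below.

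**Figure D1:**
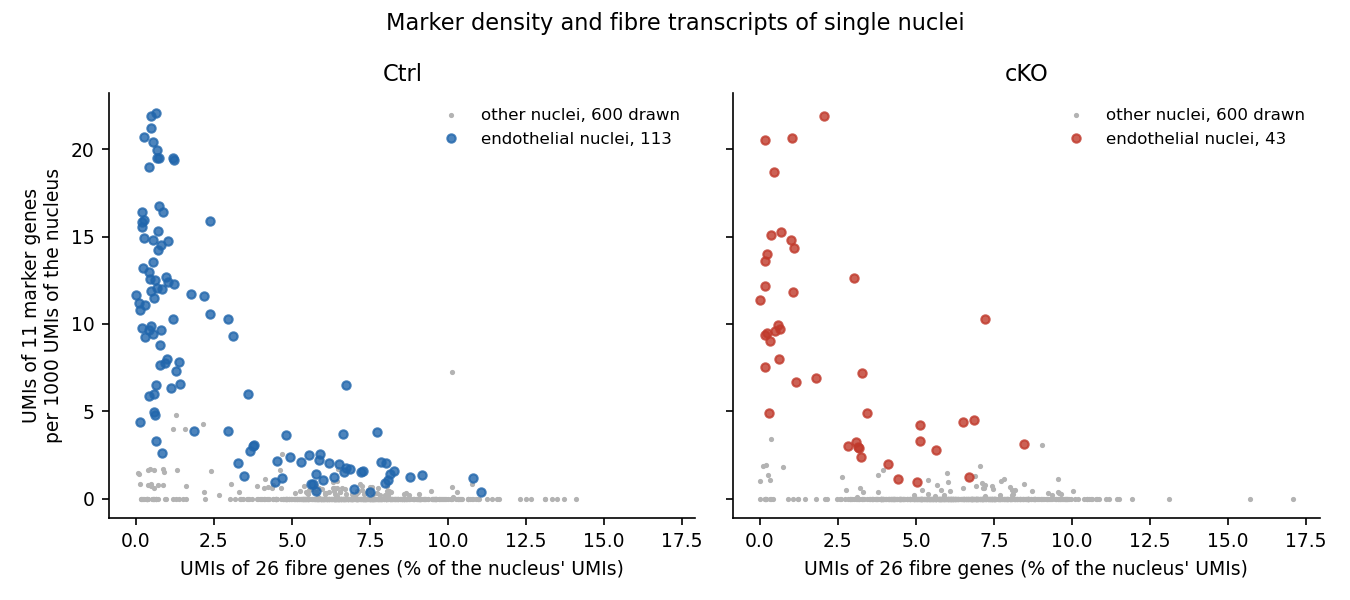
Each endothelial nucleus (coloured points) by the percent of its UMIs in 26 fibre genes (x axis) and its UMIs of the 11 rule genes per 1000 UMIs (y axis), in Ctrl and cKO, with 600 other nuclei of each library in grey. Endothelial nuclei spread from few fibre UMIs and a high marker density to the fibre shares of the other nuclei at a low density, with medians of 1.20% and 1.17% fibre UMIs.

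Measures outside the gene lists differed between the endothelial and all other nuclei, most of which are of fibres, and are given beside those of FAP nuclei. Mitochondrial UMIs made up a median of 2.07% in Ctrl and 1.34% in cKO against 0.241% and 0.300% of all other nuclei, and Malat1, an abundant nuclear long non-coding RNA, made up 13.3% and 14.3% against 25.2% and 28.8%. FAP nuclei had medians of 1.29% and 2.50% mitochondrial UMIs and 16.5% and 17.7% Malat1. Thinned to 500 UMIs each, endothelial nuclei held a median of 352 and 347 genes against 291 and 278, and FAP nuclei 348 and 347. The rule itself limited the UMIs of the 9 genes of other cells, and no UMI of the 9 genes was seen in 79 Ctrl (69.9%) and 38 cKO (88.4%) endothelial nuclei.

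At the edge of the rule, 17 Ctrl and 4 cKO nuclei held exactly 4 rule-gene UMIs, with median depths of 1893 and 1290 UMIs and fibre shares of 5.28% and 3.1%. Just outside it, 35 and 11 nuclei held 3 such UMIs at median depths of 2559 and 3172 and fibre shares of 6.13% and 6.71%. A further 13 and 2 nuclei had 4 or more rule-gene UMIs but as many from the genes of other cells, and 9 and 7 had theirs from 1 gene.

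The share of endothelial nuclei was lower in the cKO library. Endothelial nuclei made up 2.95% of all nuclei in Ctrl (113 of 3833, 95% interval 2.44 to 3.53) and 1.10% in cKO (43 of 3908, 0.797 to 1.48), a difference of -1.85 percentage points (-2.51 to -1.21). The shares of FAPs and mural cells were lower as well. Fibro-adipogenic progenitors (FAPs), found by the same rule with their own genes, made up 9.18% and 3.35%, and smooth muscle cells and pericytes, the mural cells of vessels, 1.33% and 0.640%. Immune nuclei made up 0.60% and 0.435%, with an interval of the difference (-0.515 to 0.176) that includes 0, and 4.27% and 7.87% of the nuclei outside the fibres. The remaining nuclei, mostly of fibres, made up 85.9% and 94.5%. Nuclei outside the fibres here means the endothelial, mural, FAP and immune nuclei together. Mural nuclei held a median fibre share of 5.79% in Ctrl and 4.64% in cKO, against 7.01% and 6.52% in the remaining nuclei. Many of them thus carried fibre RNA, and whether they are nuclei of fibres was not tested. Of this group, 539 in Ctrl and 216 in cKO, the endothelial share was 21.0% (17.6 to 24.6) and 19.9% (14.8 to 25.9), a difference of -1.06 points whose interval of -7.36 to 5.78 includes 0. The lower share thus held against all nuclei and was not detectable within this group. A share of nuclei cannot tell fewer endothelial cells apart from more fibre nuclei in the pool or a different recovery of nuclei. Thinning every nucleus to 500 UMIs left 58 and 23 endothelial nuclei and a difference of -0.925 points.

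**Figure D2:**
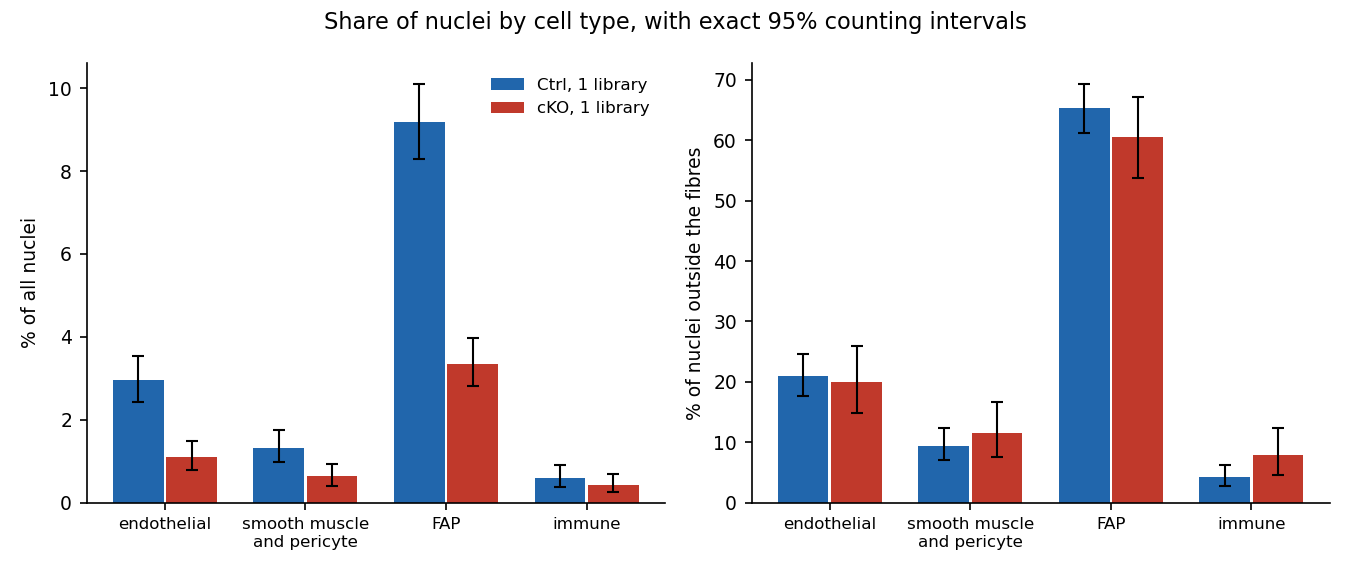
Share of nuclei (y axis, percent, bars from 0) for endothelial, mural, FAP and immune nuclei in Ctrl and cKO, of all nuclei and of the nuclei outside the fibres, with exact 95% intervals that cover counting error. The endothelial bar stands at 2.95% and 1.10% of all nuclei and at 21.0% and 19.9% of nuclei outside the fibres.

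For the levels of genes, raw UMIs were summed over the endothelial nuclei of each library and divided by the library's endothelial UMIs (CPM). Of the 3210 genes, 184 (5.73%) were at least 2-fold higher and 416 (13%) at least 2-fold lower in cKO. At these totals a gene with 0 UMIs in cKO had to have 27 UMIs in Ctrl to count as 2-fold lower. With a minimum of 5 UMIs in place of 20, 947 genes were higher and 842 lower of 7488, so the balance of the directions depended on the minimum. The median log2 ratio over the 3210 genes was -0.09, and -0.23 in low-fibre nuclei. Over 357 genes at least 4-fold higher in endothelial nuclei with both libraries summed, the median was 0.05 in endothelial nuclei and -0.67 in all other nuclei, with 46 higher and 37 lower. Endothelial transcripts were thus lower among the other nuclei of cKO, the library with fewer endothelial nuclei, and what share of them is free RNA was not tested.

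**Figure D3:**
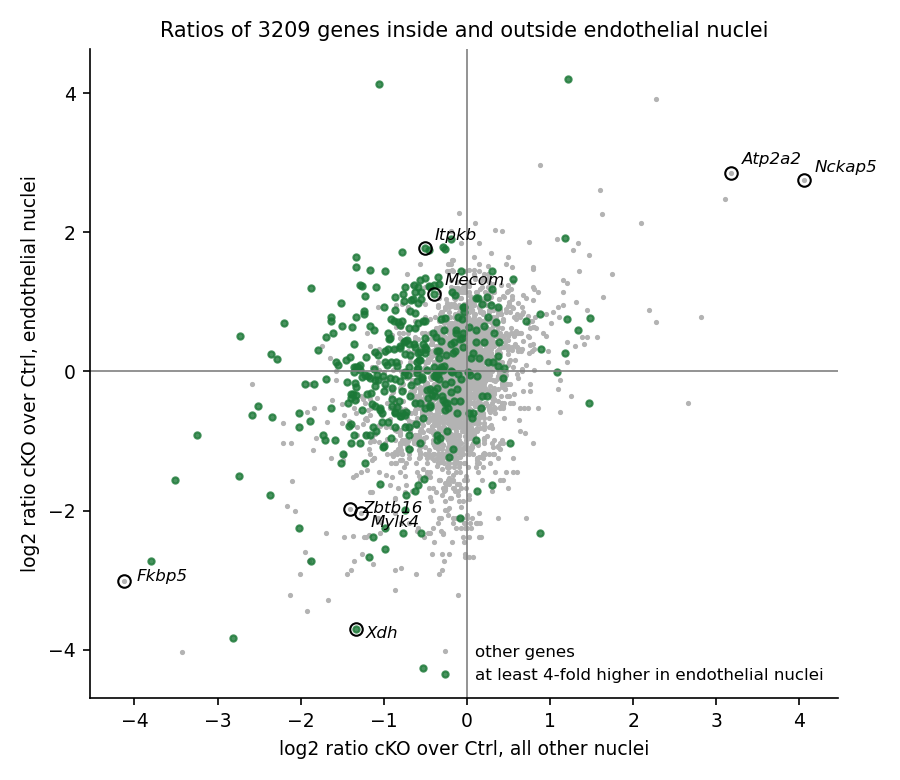
Log2 ratio of CPM, cKO over Ctrl, of 3209 genes in all other nuclei (x axis) and in endothelial nuclei (y axis). Green points are genes at least 4-fold higher in endothelial nuclei, which lie to the left (median -0.67) at about 0 on the y axis (median 0.05), and genes with 0 UMIs in cKO are drawn at 3 UMIs.

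The levels of the rule genes are a description, since every nucleus was chosen on them and the cKO nuclei were shallower. Mecom had 319 UMIs in 86 endothelial nuclei of Ctrl (1025 CPM) and 157 UMIs in 35 nuclei of cKO (2222 CPM), a log2 ratio of 1.12 (95% interval 0.83 to 1.40), which was 0.95 in low-fibre nuclei and -0.39 in all other nuclei. Cyyr1, a small membrane protein, had 184 UMIs (591 CPM) and 24 UMIs (340 CPM), a log2 ratio of -0.80 (-1.48 to -0.18), and -1.19 in low-fibre nuclei. Flt1, a VEGF receptor, had 202 UMIs in 79 nuclei (649 CPM) and 47 UMIs in 23 nuclei (665 CPM), a log2 ratio of 0.04 (-0.45 to 0.50). In low-fibre nuclei Flt1 had 143 and 18 UMIs and a ratio of -0.89, so its level depended on which nuclei were counted. The adhesion molecule Pecam1 had 132 and 28 UMIs (-0.10, interval -0.74 to 0.50) and the phosphatase Ptprb, a partner of TEK, 131 and 39 (0.39, -0.16 to 0.92). Tek, the angiopoietin receptor, had 90 and 21 UMIs (0.04, -0.72 to 0.74), Emcn 93 and 27 (0.35, -0.32 to 0.99) and Adgrl4 124 and 20 (-0.49, -1.25 to 0.20, and -1.16 in low-fibre nuclei). For Kdr, Cdh5 and Egfl7 the cKO nuclei held 7, 7 and 4 UMIs, and a 2-fold difference was not detectable at this depth.

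The 36 endothelial genes outside the rule were higher in cKO as a sum, with a log2 ratio of 0.35 (0.24 to 0.47) that was 0.06 (-0.11 to 0.21) in low-fibre nuclei. Of the 26 tested, 4 were at least 2-fold higher in cKO and 1 was lower, against 5.73% and 13% of all genes, with a median log2 ratio of 0.11 in endothelial nuclei, -0.12 in low-fibre nuclei and -0.69 in all other nuclei. The higher ones were St6galnac3, a sialyltransferase, Ldb2, a cofactor of LIM domain transcription factors, Eng, the TGF-β co-receptor endoglin, and Ly6c1, a surface protein. St6galnac3 (chr3:153198266-153725174) had 83 UMIs in 43 nuclei of Ctrl (267 CPM) and 63 UMIs in 27 nuclei of cKO (892 CPM), a log2 ratio of 1.74 (1.25 to 2.23), with UMIs in 38.1% and 62.8% of the nuclei. In low-fibre nuclei its ratio was 1.12 and in all other nuclei -0.46. Ldb2 had 141 UMIs (453 CPM) and 75 UMIs (1062 CPM), a ratio of 1.23 (0.80 to 1.64), and Eng had 57 UMIs (183 CPM) and 28 UMIs (396 CPM), a ratio of 1.11 (0.41 to 1.79) that was 0.55 in low-fibre nuclei. Ly6c1, with 13 and 7 UMIs, had an interval that included equal levels, and a ratio of 0.77 in low-fibre nuclei. The lower one was Tie1, with 27 UMIs in 22 nuclei of Ctrl and 3 UMIs in 3 nuclei of cKO, a ratio of -1.03 (-3.40 to 0.67) that was -2.15 in low-fibre nuclei.

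Transcription factors known from endothelial cells had a median near no difference. The interval of 1 tested factor, Mecom, lay above equal levels and those of 2 lay below. Of 30 listed, 19 were tested, 3 were higher (Mecom, which is a gene of the rule, Sox17 and Klf4) and 1 was lower (Bach2, at 1.03 times its level in all other nuclei), against 5.73% and 13% of all genes. The median log2 ratio was -0.10. Klf4 had 16 and 8 UMIs, 6 of the 8 in 1 nucleus, a ratio of 1.14 (-0.29 to 2.45). Erg had 31 UMIs (99.6 CPM) and 7 UMIs (99.1 CPM), and Mef2c, a factor of muscle and endothelium, had 432 and 91 UMIs with a ratio of -0.11 (-0.45 to 0.22) that was -0.74 in low-fibre nuclei. Sox17 had 13 UMIs in 13 nuclei and 8 UMIs in 5 nuclei, a ratio of 1.44 (-0.04 to 2.82) that was -0.36 in low-fibre nuclei. Tcf4, a basic helix-loop-helix factor, had 387 and 56 UMIs and a ratio of -0.67 (-1.08 to -0.24), and -1.20 in low-fibre nuclei.

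**Figure D4:**
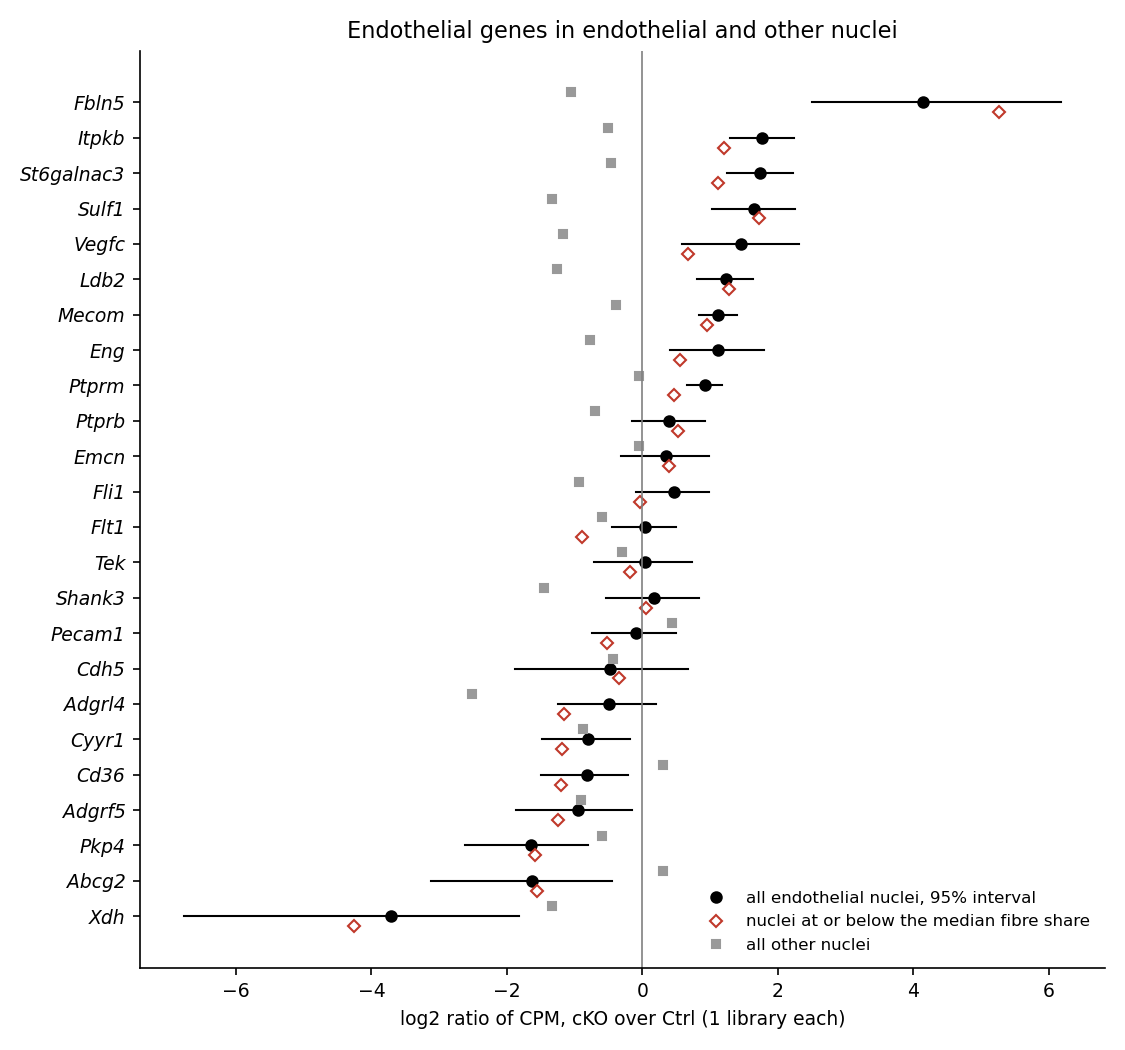
Log2 ratio of CPM, cKO over Ctrl, of 24 endothelial genes in the endothelial nuclei (points with exact 95% intervals covering counting error), in low-fibre endothelial nuclei (diamonds) and in all other nuclei (grey squares). Fbln5, Itpkb, St6galnac3 and Sulf1 lie above 1 with their intervals, and Xdh, with a ratio of -3.71, lies below -1.

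Itpkb, Sulf1 and Ptprm were higher in the endothelial nuclei of cKO, the first 2 named for the lower bound of this very ratio and Ptprm as a list member. Itpkb (chr1:180330485-180424802), a kinase that phosphorylates inositol trisphosphate, had 88 UMIs in 47 nuclei of Ctrl (283 CPM, 227 to 348) and 68 UMIs in 26 nuclei of cKO (962 CPM, 747 to 1220). Its log2 ratio of 1.77 (1.29 to 2.24) was 1.21 in low-fibre nuclei and -0.51 in all other nuclei. Sulf1, a sulfatase that trims heparan sulfate, had 56 UMIs in 22 nuclei (180 CPM) and 40 UMIs in 12 nuclei (566 CPM), a ratio of 1.65 (1.03 to 2.26), and 1.72 in low-fibre nuclei. It is not particular to endothelial nuclei, with 416 CPM in FAP nuclei of Ctrl and 365 CPM in those of cKO. Ptprm, an adhesion phosphatase, had 412 UMIs in 94 nuclei (1324 CPM) and 177 UMIs in 39 nuclei (2505 CPM), a ratio of 0.92 (0.66 to 1.18) that was 0.47 in low-fibre nuclei. Nedd9 and Galnt18, which the naming rule did not pick, had ratios of 1.79 and 1.36.

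Genes of arterial endothelium were higher in the cKO nuclei as a sum, though not gene by gene. Of 18 arterial genes 6 were tested and 4 were at least 2-fold higher (Fbln5, Vegfc, Sox17 and Efnb2), 0 were at least 2-fold lower, against 5.73% and 13% of all genes, and the median log2 ratio was 1.32 (0.60 in low-fibre nuclei). The 18 genes summed to 159 UMIs (511 CPM) in Ctrl and 83 UMIs (1175 CPM) in cKO, a ratio of 1.20 (0.80 to 1.59), against -0.40 in all other nuclei and 1.08 in low-fibre nuclei. Fbln5 (chr12:101746565-101819055), an elastic fibre protein, had 4 UMIs in 2 nuclei of Ctrl (12.9 CPM) and 16 UMIs in 10 nuclei of cKO (226 CPM), a ratio of 4.14 (2.51 to 6.18), and -1.06 in all other nuclei. Vegfc, a ligand of lymphatic growth, had 32 UMIs in 12 nuclei, 14 of them in 1 nucleus, and 20 UMIs in 13 nuclei, a ratio of 1.46 (0.58 to 2.31) that was 0.68 in low-fibre nuclei. The ephrin ligand Efnb2 had 21 and 11 UMIs, a ratio of 1.21 (0.01 to 2.32). The other tested genes were Jag1, a Notch ligand, at 17 and 3 UMIs (-0.36, -2.78 to 1.43, and 0.51 in low-fibre nuclei), and Nebl at 18 and 3 (-0.45, -2.85 to 1.33, and 8 and 0 UMIs in low-fibre nuclei). The remaining 12 genes, below the minimum of 20 UMIs, went both ways. The kinase Bmx had 5 and 8 UMIs (2.82, 1.02 to 4.77) and the gap junction gene Gja5 6 and 7 (2.36, 0.56 to 4.21), whereas Alpl, alkaline phosphatase, had 14 and 0, Mgp 8 and 1, Unc5b 6 and 1, and Dll4, Gja4, Cxcr4 and Sema3g 1 and 0 each. Stmn2 had 7 and 2 UMIs, Hey1 3 and 2 and Hey2 1 and 1.

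Counted by nuclei, the arterial difference was not separable from counting error. A nucleus was counted for a vessel type when it held at least 2 UMIs from at least 2 of that type's genes, leaving out the rule genes. Arterial genes met this in 30 of 113 Ctrl nuclei (26.5%, 18.7 to 35.7) and 16 of 43 cKO nuclei (37.2%, 23.0 to 53.3), against 1.56% and 0.492% of all other nuclei. Thinned to 500 UMIs per nucleus, the shares were 6.19% (2.53 to 12.3) and 16.3% (6.81 to 30.7). Capillary genes met it in 69.9% (60.6 to 78.2) and 62.8% (46.7 to 77.0), against 12.5% and 14.4% of all other nuclei, and venous genes in 21.2% (14.1 to 29.9) and 14.0% (5.30 to 27.9). Of 16 venous genes 4 were tested, with the co-receptor Nrp2 at least 2-fold higher and Flrt2 lower (42 and 4 UMIs), against 5.73% and 13% of all genes. Their median log2 ratio was -0.58 and the ratio of the sum of all 16 was -0.10 (-0.66 to 0.43). Lymphatic genes met it in 4.42% and 6.98%. Their sum was 58 UMIs in Ctrl, 29 of them in 1 nucleus, and 18 UMIs in cKO, a ratio of 0.45 (-0.40 to 1.23). In low-fibre nuclei it was 18 and 18 UMIs, a ratio of 2.10 (1.07 to 3.12). The intervals of the shares of nuclei overlapped between the libraries for each vessel type, at full depth and thinned. A nucleus could count for more than 1 type.

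**Figure D5:**
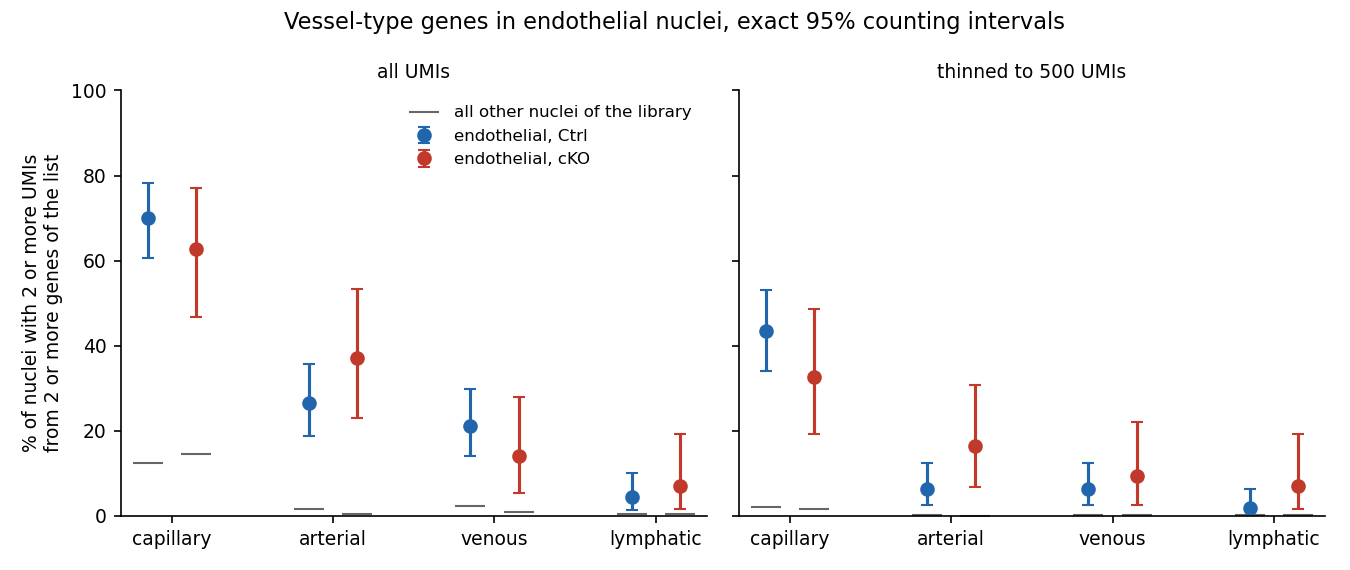
Percent of endothelial nuclei (y axis) with at least 2 UMIs from at least 2 genes of capillary, arterial, venous or lymphatic endothelium in Ctrl and cKO, with all UMIs and thinned to 500 UMIs per nucleus, with exact 95% intervals covering counting error; dashes mark all other nuclei. Arterial nuclei stand at 26.5% and 37.2% with all UMIs and at 6.19% and 16.3% thinned, and the intervals overlap.

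Capillary genes differed little between the libraries. Of 18 capillary genes, among them the rule gene Kdr, 12 were tested. At least 2-fold higher were 0 and 1 (Gpihbp1) was lower, against 5.73% and 13% of all genes. Their sum had a log2 ratio of -0.09 (-0.36 to 0.17), and of -0.41 (-0.78 to -0.05) in low-fibre nuclei, from 430 and 76 UMIs, of which Cd36 held 108 and 11. The median was -0.20, and -0.30 in low-fibre nuclei. Xdh (chr17:73883895-73950196), xanthine dehydrogenase of purine breakdown, was far lower in cKO. It is outside the capillary list and was named for the upper bound of this very ratio. It had 115 UMIs in 53 nuclei of Ctrl (370 CPM, 305 to 444) and 2 UMIs in 2 nuclei of cKO (28.3 CPM, 3.43 to 102), a ratio of -3.71 (-6.77 to -1.82), and 82 and 1 UMIs (-4.26) in low-fibre nuclei. Xdh was 20.5-fold higher in endothelial than in other nuclei, where its ratio was -1.34. The intervals of its 2 libraries did not overlap, which the choice by this bound fixed in advance.

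Among 19 genes of fatty acid handling, 11 were tested, 0 were higher and 2 were lower (Pparg and Gpihbp1), against 5.73% and 13% of all genes. The median log2 ratio was -0.05, and -0.32 in low-fibre nuclei. The sum of the list had a ratio of -0.04 (-0.29 to 0.20), and of -0.40 (-0.81 to -0.02) in low-fibre nuclei, from 362 and 64 UMIs, of which Cd36 held 108 and 11. Cd36, the fatty acid transporter, had 187 UMIs in 67 nuclei (601 CPM) and 24 UMIs in 14 nuclei (340 CPM), a ratio of -0.82 (-1.50 to -0.21), -1.20 in low-fibre nuclei and 0.30 in all other nuclei. Gpihbp1, which holds lipoprotein lipase on the capillary wall, had 22 and 2 UMIs, a ratio of -1.32 (-4.45 to 0.70), and the nuclear receptor Pparg 29 and 2 (-1.72, -4.83 to 0.26, and -0.99 in low-fibre nuclei), both with intervals that include equal levels. Fabp4, a fatty acid binding protein, had 57 and 21 UMIs and a ratio of 0.70 (-0.10 to 1.44), which was 0.02 in low-fibre nuclei.

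Among 18 solute transporters 12 were tested, 1 was at least 2-fold higher and 2 were lower, against 5.73% and 13% of all genes. The sum of the list had a ratio of -0.27 (-0.57 to 0.01), and of -0.51 (-0.98 to -0.07) in low-fibre nuclei. The lower ones were the efflux pumps Abcg2 and Abcc4. Abcg2 had 82 UMIs in 40 nuclei (264 CPM) and 6 UMIs in 6 nuclei (84.9 CPM), a ratio of -1.63 (-3.12 to -0.45), -1.55 in low-fibre nuclei and 0.30 in all other nuclei. Abcc4 had 63 and 3 UMIs (-2.25, -4.57 to -0.64). The higher one, the taurine transporter Slc6a6, had a ratio of 1.14 that was -0.71 in low-fibre nuclei and was 0.86 in all other nuclei, so its direction did not hold.

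Of 22 genes of junctions and adhesion, among them the rule genes Cdh5 and Pecam1, 16 were tested. Higher was 1, the scaffold Magi3 (1.10, 0.20 to 1.95), and 1 was lower, Pkp4, a plakophilin of cell junctions, against 5.73% and 13% of all genes. Pkp4 (chr2:59160850-59355208) had 165 UMIs in 70 nuclei of Ctrl (530 CPM) and 12 UMIs in 9 nuclei of cKO (170 CPM), a log2 ratio of -1.64 (-2.62 to -0.80), -1.58 in low-fibre nuclei. The receptor Adgrf5 had 119 UMIs in 53 nuclei (382 CPM) and 14 UMIs in 12 nuclei (198 CPM), a ratio of -0.95 (-1.86 to -0.15). Among 19 genes of the basement membrane 12 were tested, 0 were higher and 2 were lower, against 5.73% and 13% of all genes. These were the laminin chain Lamc1 (84 and 7 UMIs, -1.45, -2.80 to -0.34, and -3.03 in low-fibre nuclei) and Col15a1 (24 and 2, -1.45, -4.57 to 0.56, and -0.61). Col4a1 and Col4a2, the main collagen chains of the basement membrane, had ratios of 0.31 and -0.08. Mctp1, a calcium-binding membrane protein outside these lists, was named for the upper bound of its cKO to Ctrl ratio. It had 85 UMIs in 20 nuclei and 1 UMI, a ratio of -4.27 (-9.59 to -1.75). The protease gene Tll1 had 23 and 0 UMIs, which gives a log2 ratio of -0.80 with cKO set at 3 UMIs and an upper 95% bound of -0.38.

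The ligand and signalling groups gave few calls. Of 7 VEGF and angiopoietin ligands 3 were tested and 1 (Vegfc) was higher. Of 8 receptors, among them the rule genes Flt1, Kdr, Tek and Ptprb, 7 were tested. Nrp2 was higher (1.08, -0.05 to 2.13, and 0.61 in low-fibre nuclei) and Tie1 lower. Among 19 Notch pathway genes 7 were tested, with the DNA-binding Rbpj higher (1.46, 0.43 to 2.45, but 0.10 in low-fibre nuclei) and the coactivator Maml1 lower (-1.32, -3.67 to 0.35, but 0.10 in low-fibre nuclei). Among 20 genes of the BMP and TGF-β pathway 11 were tested, with Eng and the inhibitor Smad7 higher and Bmper, which binds BMPs, lower at 29 and 0 UMIs. The interval of Smad7 included equal levels. Of 21 genes of vessel tone and clotting 8 were tested and 0 were at least 2-fold different, with Vwf, a clotting protein, at 0.09 (2.10 in low-fibre nuclei, from 5 and 5 UMIs), Nos3, the endothelial nitric oxide synthase, at 0.08 (-1.15 there) and Edn1, the constrictor endothelin, at 0.48. Among 22 genes of leukocyte traffic and antigen display 9 were tested, with H2-D1 higher (13 and 11 UMIs, 1.90, 0.60 to 3.17, and 4 and 8 UMIs in low-fibre nuclei) and Il1r1, the interleukin-1 receptor, lower (45 and 3, -1.77, -4.10 to -0.13). With at most 11 genes tested in each, a share of calls in these lists cannot be told apart from the 5.73% and 13% of all genes.

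Genes that respond to glucocorticoids were lower in cKO in the endothelial nuclei and in the other nuclei alike. Of 15 such genes 8 were tested, 4 were at least 2-fold lower (Zbtb16, Fkbp5, Pdk4 and Errfi1) and 0 were higher, against 13% and 5.73% of all genes. The interval of Errfi1 included equal levels. The median log2 ratio was -1.04, with -1.43 in low-fibre nuclei and -1.0 in all other nuclei. Summed, they reached 4676 CPM in Ctrl against 1713 CPM in the cKO library, a ratio of -1.45 (-1.73 to -1.18). Of the 1455 and 121 UMIs of this sum, Zbtb16 alone held 817 and 47. Tsc22d3, of the same list, had 43 and 6 UMIs and an interval that included equal levels (-0.70, -2.23 to 0.54). Zbtb16, a zinc finger repressor, had 817 UMIs in 96 nuclei of Ctrl (2626 CPM) and 47 UMIs in 17 nuclei of cKO (665 CPM), a ratio of -1.98 (-2.44 to -1.56), -3.32 in low-fibre nuclei and -1.41 in all other nuclei. Fkbp5, a chaperone of the glucocorticoid receptor, had 179 UMIs in 66 nuclei (575 CPM) and 5 UMIs in 3 nuclei (70.8 CPM), a ratio of -3.02 (-4.66 to -1.77), -1.64 in low-fibre nuclei and -4.12 in all other nuclei. Pdk4, a kinase that restrains pyruvate use, had a ratio of -1.58 that was 0.10 in low-fibre nuclei. In the circadian clock list 8 of 18 genes were tested, 0 were higher and 1 (Nfil3) was lower, against 5.73% and 13% of all genes. In the list of p53 family genes and targets, 3 of 22 were tested and 0 were 2-fold different, against the same shares. Trp63, a p53 family member, had 61 and 26 UMIs (0.91, 0.19 to 1.59) but a ratio of -0.23 in low-fibre nuclei, and its level was 0.439 times that of all other nuclei. The nuclear envelope list had 8 of 19 genes tested and Sun1 lower (19 and 1 UMIs, -2.11, -7.49 to 0.54), against 13% of all genes. The list of immediate early genes had 1 of 20 tested, Jun, at 19 and 10 UMIs (1.21), against 5.73% of all genes higher. The interval of Jun included equal levels, and Atf3, a stress factor, had 1 and 0 UMIs.

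Genes of fibres were present in the endothelial nuclei. The list of 26 fibre genes summed to 50545 CPM in endothelial nuclei of Ctrl and 39603 CPM in those of cKO, against 69625 and 64278 CPM in all other nuclei. Of the 24 tested, 2 were at least 2-fold higher (Cacna1s and Myh2) and 2 were lower (Mylk4 and Mylpf), against 5.73% and 13% of all genes, and the median log2 ratio was -0.18. Further genes with large ratios, chosen by their bounds and not from the list, are given here beside their ratios in all other nuclei. Atp2a2, the calcium pump of slow fibres, had 17 and 28 UMIs and a log2 ratio of 2.86, with 3.18 in all other nuclei and -0.07 in low-fibre nuclei. Nckap5 (2.75) and Car3, carbonic anhydrase of slow fibres (2.48), had 4.06 and 3.1 in all other nuclei, and Car3 had 0 UMIs in the low-fibre nuclei of both libraries. Among the lower genes, Mylk4, a myosin light chain kinase, had 558 and 31 UMIs (-2.03, against -1.28 in all other nuclei, and 18 and 0 UMIs in low-fibre nuclei), and Tbc1d1, a regulator of glucose uptake, 247 and 6 (-3.22, -4.68 to -2.08, against -2.13). Ldah, Ccdc6 and Gm12300 had 48, 44 and 44 UMIs in Ctrl and 0 in cKO, which gives log2 ratios of -1.86, -1.74 and -1.74 with cKO set at 3 UMIs and upper 95% bounds of -1.51, -1.38 and -1.38. In low-fibre nuclei Tbc1d1 had 24 and 1 UMIs (-2.49) and Nckap5 had 3 and 3 (2.10). The part of fibre RNA in these ratios was not tested.

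Genes of other cells were also present. The 16 FAP genes summed to 931 UMIs in the endothelial nuclei of Ctrl and 161 UMIs in those of cKO, and of the 7 tested 4 were at least 2-fold lower (Col1a2, Col3a1, Col6a3 and Abca8a), against 13% of all genes. Fbn1, a microfibril protein of the same list, had a ratio of 0.93 (0.25 to 1.58). Its level depended on which nuclei were counted, with 1.93 in low-fibre nuclei, 0.15 in those above the median fibre share and -0.71 in all other nuclei. Col1a2, a fibrillar collagen, had 53 UMIs in Ctrl, 40 of them in 1 nucleus, and 0 in cKO, and Col3a1 had 99 UMIs, 65 of them in 1 nucleus, and 3 in cKO, so that 1 nucleus held most of the Ctrl UMIs of each. Of the smooth muscle and pericyte genes 6 of 15 were tested and 1 (Ebf2, 20 and 2 UMIs) was lower, against 13% of all genes. Markers of further cells were scarce, with 7 and 5 UMIs over the satellite cell list, 11 and 1 over the Schwann cell list, 32 and 1 over the tenocyte list and 15 and 2 over the 8 genes that chose the immune nuclei. The adipocyte list held 321 and 77 UMIs, all of them of Ghr and Pparg, with Adipoq and Plin1 at 0. The part of these cells in the results was not tested. The haemoglobin gene Hbb-bs had 5 UMIs in 3 nuclei of Ctrl and 21 UMIs in 3 nuclei of cKO, 11 of them in 1 nucleus, a log2 ratio of 4.21 (2.76 to 5.97) that therefore rests on 3 nuclei.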

How the data were processed

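Nuclei of GP muscle were profiled by droplet snRNA-Seq in 1 Ctrl and 1 cKO library, each of 3 pooled muscles per the labels' protocol (the sample titles name 1 mouse). The deposited matrices hold raw UMI counts per gene and barcode that the authors made with Cell Ranger 3.1.0 on mm10 per the labels and methods. Default parameters are stated. The annotation release and the treatment of intron reads were not named in the sources used here, and the sources name different versions of the 3′ kit, so the chemistry is unsettled. Nuclei had at least 500 UMIs and at most 10% mitochondrial UMIs. Endothelial nuclei and all gene lists were chosen with earlier results of these data known. Smooth muscle and pericyte, FAP and immune nuclei, in this order, had at least 4 UMIs from at least 2 genes of their own list and fewer of the 11 endothelial genes. UMIs were summed per library and given as CPM, with exact Poisson, Clopper-Pearson and conditional intervals. Genes had at least 20 UMIs over both libraries, and a gene at 0 was set at 3 UMIs for counts and ranked lowest for medians. Named were the rule genes, the 20 genes with the highest lower bound over all other nuclei, the 12 with the highest lower and the 12 with the lowest upper bound of the cKO to Ctrl ratio, up to 4 genes with most UMIs per list and those whose interval excludes 1, and Plpp7, Malat1, Atf3, Trp63, Mef2c and Mylk4. Genes past 2-fold in a list with 5 or fewer of them are named too, chosen after their values were seen. With 1 library per group no test was run. The marker rule, depth, mitochondrial limit, doublets, thinning, totals and gene minimum were varied. Scrublet (scanpy 1.11.5) marked 0 nuclei by its own threshold, which gave no doublet calls to use, and the highest 8% of its scores were removed as an alternative. The paper states that its authors called doublets with Scrublet and left them out. Coordinates are of GENCODE M21, in which 27645 of 27998 gene identifiers matched. The calculations were tested on simulated data and run in Python 3.11.15 (matplotlib 3.10.9 for plots, pandas 2.3.3 for tables, and scipy 1.17.1 and numpy 2.4.6 for intervals).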

Additional observations from a re-analysis of the deposited data

How the results depend on the processing

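The difference in the endothelial share lay between -2.48 and -0.925 percentage points under 10 alternatives, the last one given here on another denominator. It was -1.09 with nuclei free of UMIs of the 9 other genes and -0.925 thinned. Of nuclei outside the fibres it was -1.06, with an interval of -7.36 to 5.78 that includes 0. The count of genes at least 2-fold higher in cKO was 121 with nuclei free of the other genes, 283 as the mean of each nucleus's own CPM, 36 thinned, 78 in low-fibre nuclei, 49 at a minimum of 50 UMIs and 947 at 5. The count at least 2-fold lower was 79 thinned, 162 in low-fibre nuclei, 116 at 50 UMIs and 842 at 5. Fewer genes were tested in nuclei free of the other genes (2107, of which 5.74% were higher) and in the thinned (675), low-fibre (906) and 50 UMI (1370) settings and more at 5 UMIs (7488). The count at least 4-fold higher in endothelial nuclei of Ctrl and cKO was 189 and 199 thinned, 136 and 169 at 50 UMIs and 842 and 1006 at 5, and 255 in cKO from 1000 UMIs per nucleus. The direction turned for Atp2a2 (-0.07), Pdk4 (0.10), Mybpc2 (-0.90), Slc6a6 (-0.71) and Trp63 (-0.23) in low-fibre nuclei, for Slc6a6 (-0.34) and Trp63 (-0.61) thinned, and for Gvin1 (-0.67) from 1000 UMIs. Of the log2 ratios of named genes recomputed, 2768 stayed within their counting interval, 181 lay outside it and 8 turned although that interval excluded equal levels. Sign changes of genes whose interval included equal levels, such as Sox17, Flt1 and Foxo1 in low-fibre nuclei, are not among the 8. Of the list medians, 8 moved by more than the spread of the list's genes and 218 did not, and that of the glucocorticoid list was -2.15 thinned, that of vessel tone -0.37 to -0.41 under 3 alternatives. Those with no mitochondrial limit, with a limit of 5% and without the deepest nuclei were chosen after seeing the data. Removing the highest doublet scores left 105 and 42 endothelial nuclei. No paired analysis was possible because each group had 1 library. The cKO nuclei held 70651 UMIs in all, so that genes of low level could not be compared.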
